A study of Homo sapiens with 3 samples.

Results

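LX-2 cells, an established hepatic stellate line of human origin, were cultured for 48 h with TGF-b1 or with DMSO, the vehicle, and the RNA of each culture was sequenced. The comparison of TGF-b1 alone with DMSO covers 2 of the 3 libraries of the study and 11327 of its 17576 genes, those with a mean of at least 1 FPKM (fragments per kilobase of transcript and per unit of library size) over the 3 libraries. The third library came from cells given TGF-b1 together with 10 μM of a natural compound labelled DP, and its values are printed for context. All cells grew in DMEM with 10% fetal bovine serum, a medium that itself carries growth factors. The sources used here do not give the dose of TGF-b1. Each group was 1 library of 1 cell line, so there is no replicate check, no p-value is given, and every difference describes these libraries and not their conditions. Differences are log2((FPKM + 1)/(FPKM + 1)), TGF-b1 minus DMSO, and a gene is called higher or lower from a difference of 1, which is 2-fold on that scale. Levels of a gene are given in the order vehicle, TGF-b1 and, where another value stands, TGF-b1 with DP, and the difference follows in brackets.

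TGF-beta 1 is the best known fibrogenic cytokine of the liver. It binds a type II receptor, TGFBR2, which activates the type I receptor TGFBR1, and that kinase phosphorylates SMAD2 and SMAD3, which enter the nucleus with SMAD4. In stellate cells the pathway is known for driving the change from a retinoid-storing cell to a contractile myofibroblast that secretes collagen, fibronectin and inhibitors of matrix breakdown.

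In the TGF-b1 library, transcripts of the feedback genes PMEPA1, SMAD7 and SKIL, of fibronectin, tenascin, lysyl oxidase, smooth muscle actin and the mesenchymal transcription factors FOXS1 and SNAI1 were higher. Several transcripts of the BMP branch, of guidance molecules and of large chromatin and cytoskeletal proteins were lower. A trend with transcript length and GC content is described below. With that trend removed, lower counts went from 17 to 4 for chromatin regulators and from 7 to 0 for contractile genes. For BMP genes they went from 5 to 4 and for guidance molecules from 6 to 4. In all, 262 genes were higher (2.31% of those kept) and 762 lower (6.73%), and the median difference over all kept genes was -0.10. Counts of called genes in a list are to be read beside these shares. Of the 6249 genes under 1 FPKM, 8 would have been higher and 23 lower. At the filter's edge, PAX8, at a mean of 1 FPKM, and HOXA5, at 1.003, were just inside it, and CD27 and CSF3, both at 0.997, just outside.

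**Figure D1:**
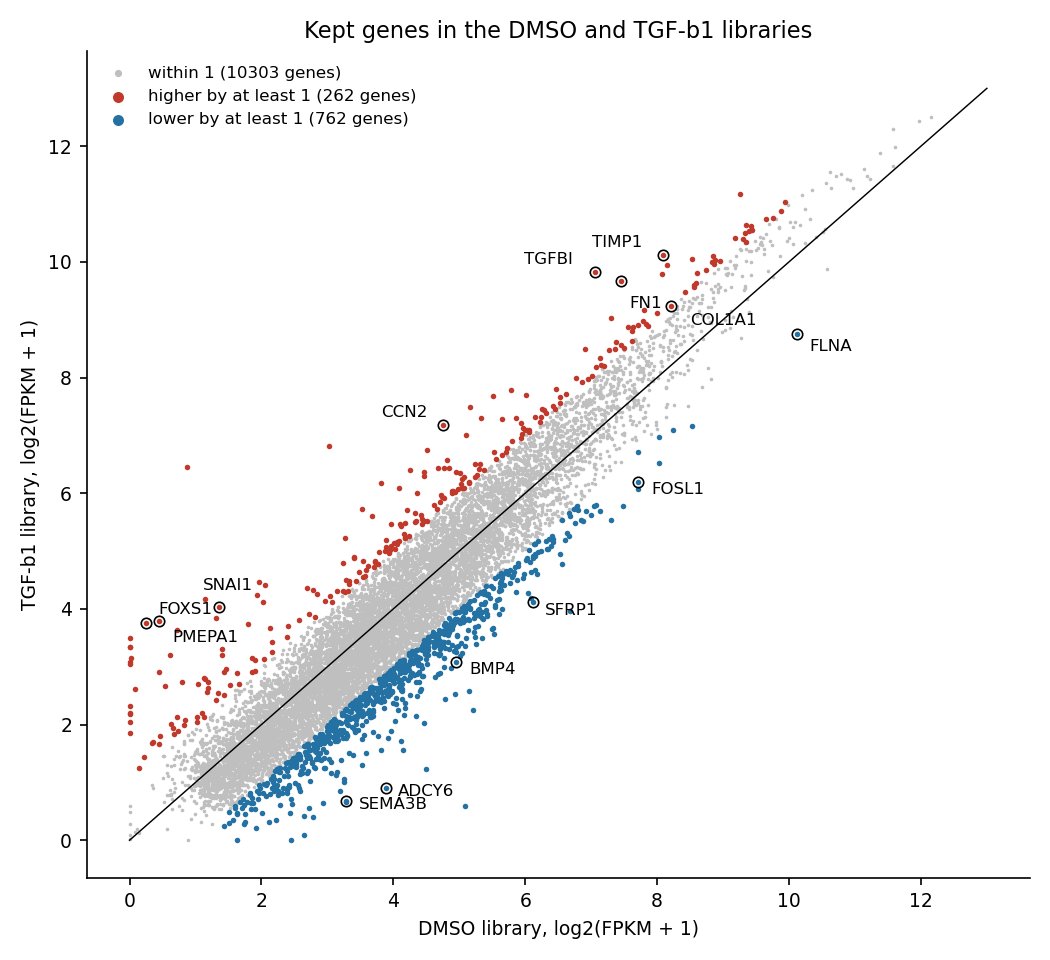
Level of each kept gene in the DMSO library (x axis) and the TGF-b1 library (y axis), both as log2(FPKM + 1), with the line of equal level. Red points are the 262 genes higher by at least 1, blue points the 762 lower by at least 1 and grey points the rest, and ringed points are genes described in the text. Most grey points of high level lie above the line and most of low level below it.

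Mesenchymal markers were present, with gaps. VIM, the intermediate filament of mesenchymal cells, was at 1936 FPKM with the vehicle and 2734 with TGF-b1, and PDGFRB, the PDGF receptor of stellate cells, at 6.51 and 6.53. PDGFRA was at 0.08 and 0.17 and LUM was listed at 0 in every library. Of 9 hepatocyte markers 7 were under 1 FPKM in both libraries, with a summed level of 5.39 FPKM with the vehicle and 3.82 with TGF-b1, and ALB was at 0.02 and 0. The 8 endothelial markers summed to 1.55 and 1.25 FPKM, and the 7 epithelial markers to 17.7 and 23.7, of which SOX9 made up 12.6 and 13.9. The 7 markers of macrophages and other blood cells summed to 55.2 and 26.5 FPKM, with CD68, a lysosomal protein, at 48.5 and 21.3, PTPRC at 0.58 and 0.55 and CD3E listed at 0. In a bulk library, fewer cells that express a gene and less RNA per cell cannot be told apart.

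Differences moved with 2 properties of the transcripts (the plot of medians by length and GC content). In the eighth of genes with the shortest transcripts (177 to 1765 bases) the median difference was 0.43, with 102 genes higher and 14 lower. In the eighth with the longest (7023 to 34526 bases) it was -0.47, with 11 higher and 221 lower. Over eighths of GC content the median went from 0.14 in the lowest to -0.35 in the highest. The part of length and GC content in any single result was not tested. Values with this trend removed by regression are called corrected below. They exist for 11280 genes, of which 190 were higher (1.68%) and 284 lower (2.52%). Of the genes called higher as deposited 118 were also called after correction (45.7%, and 62.1% of the corrected calls), and of those called lower 199 (26.4% and 70.1%). The FPKM columns also differed in sum, 443566 in DMSO and 546754 in TGF-b1, and scaling both to the same total moved the median of all genes by -0.26, while median-of-ratios scaling moved it by 0.11.

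**Figure D2:**
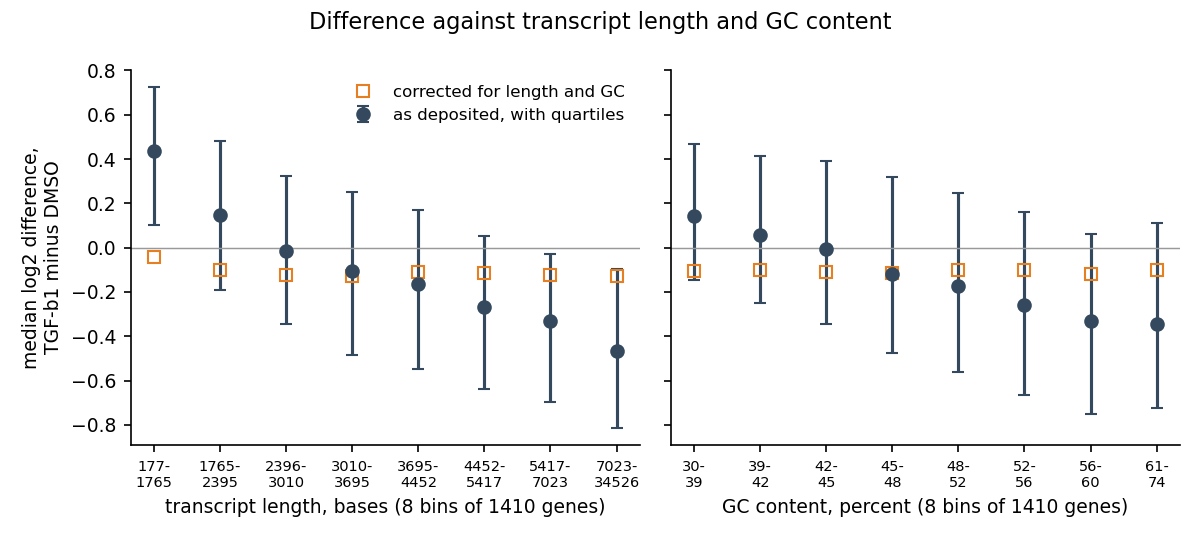
Median log2 difference (TGF-b1 minus DMSO) in 8 bins of 1410 genes by transcript length in bases (left) and by GC content in percent (right). Filled circles are values as deposited with bars from the lower to the upper quartile, and open squares are medians after correction. The filled circles step down from 0.43 to -0.47 with length, and the open squares lie between -0.04 and -0.13.

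Among the ligands, receptors and SMADs, 4 of 24 kept genes were higher and 0 lower. The median was 0.01 (-0.28 with equal totals), and the 4 were all ligands or a ligand activator. TGFB2, a second TGF-beta ligand, was at 2.89 FPKM with the vehicle, 21.2 with TGF-b1 and 9.72 with DP added, a difference of 2.51. INHBA, the activin A subunit, was at 1.64, 8.94 and 49.4 FPKM (1.91). The gene of the cytokine itself, TGFB1, was at 87.5, 222 and 136 FPKM (1.33), though its exons overlap those of HNRNPUL1. THBS1, which can free TGF-beta from its latent complex, was at 27.3, 94.4 and 102 FPKM (1.75) and also shares reads with another gene.

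The receptors and SMADs themselves differed by less. TGFBR1 was at 14.6 FPKM with the vehicle and 13.2 with TGF-b1, TGFBR2 at 17.4 and 15.5, SMAD2 at 12.4 and 14.2 and SMAD4 at 13.8 and 14.99. SMAD3, which binds DNA directly, was at 48.2 and 24.5 FPKM, a difference of -0.95, or -0.52 after correction. Of the proteins that hold the ligand latent, LTBP3 (-0.96) and LTBP4 (-0.87) were the lowest, and LTBP2 was at 0.82 and 1.60 FPKM (0.51).

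Among 16 feedback inhibitors there were 3 higher genes and 1 lower one. The median was 0.22, which turned to -0.06 with equal totals. PMEPA1, which sequesters receptor-activated SMADs, had 0.37 FPKM with the vehicle, 12.9 with TGF-b1 and 16.3 with DP added (3.34, corrected 3.77). SMAD7, the inhibitory SMAD of this pathway, had 7.88, 18.8 and 23.5 FPKM (1.15, corrected 1.64). SKIL, a corepressor of SMADs, had 1.70, 4.72 and 4.08 FPKM (1.08, corrected 0.92). With DP added, PMEPA1 and SMAD7 were above and SKIL a little below their TGF-b1 level. SMAD6, the inhibitory SMAD that acts mainly on BMP signals, went the other way, from 3.74 to 0.8 FPKM (-1.40, corrected -0.82). FKBP1A, which keeps the type I receptor silent without ligand, was at 305 and 553 FPKM (0.85).

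Of 43 direct SMAD target genes 24 were higher and 0 lower, and the median was 1.08 against -0.10 over all kept genes. It was 1.28 after correction and 0.86 with equal totals. The list holds genes known to respond to this cytokine and was chosen with earlier results of these data known. Its direction is therefore neither a finding nor an independent check of the label. IL11, a cytokine that acts on fibroblasts, was at 8.61 FPKM with the vehicle, 36.4 with TGF-b1 and 37.6 with DP added (1.96). CCN2, connective tissue growth factor, was at 26.1, 144 and 139 FPKM (2.42). TGFBI, a secreted protein that binds collagen and integrins, was at 132, 901 and 382 FPKM (2.76). At the other end of the list stood ETS1 (57.8 and 42.1 FPKM, -0.45) and CDKN1A, the p21 inhibitor of cyclin-dependent kinases (22.8 and 17.5 FPKM, -0.36).

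Promoter windows of 5 higher genes are shown because SMAD3 and SMAD4 bind the letters CAGAC or, on the other strand, GTCTG. Each window holds 300 bases, 250 before and 50 after the RefSeq start (GRCh38.p14), 5′ to 3′ on the gene's strand, with CAGAC or GTCTG in capitals. They are CCN2 (chr6:131951323-131951622, minus strand), LOX (chr5:122078210-122078509, minus strand), HES1 (chr3:194135898-194136197, plus strand), PMEPA1 (chr20:57711423-57711722, minus strand) and TGFBI (chr5:136028738-136029037, plus strand).
CCN2: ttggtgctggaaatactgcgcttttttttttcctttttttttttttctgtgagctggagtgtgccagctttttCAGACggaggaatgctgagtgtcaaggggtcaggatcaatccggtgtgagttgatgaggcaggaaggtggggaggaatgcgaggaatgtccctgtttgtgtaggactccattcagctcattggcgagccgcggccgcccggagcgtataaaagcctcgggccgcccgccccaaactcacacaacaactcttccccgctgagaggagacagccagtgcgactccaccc
LOX: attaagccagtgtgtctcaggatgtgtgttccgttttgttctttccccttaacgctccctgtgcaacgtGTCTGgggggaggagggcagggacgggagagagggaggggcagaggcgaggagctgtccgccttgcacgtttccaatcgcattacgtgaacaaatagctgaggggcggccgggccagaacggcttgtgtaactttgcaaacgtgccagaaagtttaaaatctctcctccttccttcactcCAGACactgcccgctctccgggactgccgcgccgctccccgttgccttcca
HES1: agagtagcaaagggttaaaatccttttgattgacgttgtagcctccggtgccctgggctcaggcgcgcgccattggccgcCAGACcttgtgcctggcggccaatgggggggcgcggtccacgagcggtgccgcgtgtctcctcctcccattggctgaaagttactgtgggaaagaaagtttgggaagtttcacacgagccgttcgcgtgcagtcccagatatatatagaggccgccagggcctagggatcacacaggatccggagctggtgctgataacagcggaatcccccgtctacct
PMEPA1: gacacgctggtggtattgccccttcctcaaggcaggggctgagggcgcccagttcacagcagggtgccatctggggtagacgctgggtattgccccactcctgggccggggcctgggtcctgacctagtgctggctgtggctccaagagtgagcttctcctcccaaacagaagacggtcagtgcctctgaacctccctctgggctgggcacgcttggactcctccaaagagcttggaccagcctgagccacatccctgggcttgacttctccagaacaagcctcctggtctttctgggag
TGFBI: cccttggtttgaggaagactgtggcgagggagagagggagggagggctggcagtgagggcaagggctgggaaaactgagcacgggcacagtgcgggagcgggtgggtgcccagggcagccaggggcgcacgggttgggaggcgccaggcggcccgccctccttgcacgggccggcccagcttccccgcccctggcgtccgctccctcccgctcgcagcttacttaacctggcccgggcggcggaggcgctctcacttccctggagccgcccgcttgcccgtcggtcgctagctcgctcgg

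The CCN2 window has 1 CAGAC match and 3 matches of CATTCC, the motif of TEAD factors, in either orientation. LOX has 2 CAGAC matches and HES1 has 1, while PMEPA1 and TGFBI, with the largest differences of the 5, have none in these letters. PMEPA1 and TGFBI each have 1 match of GGCGCC, a GC-rich SMAD motif, and the other windows shown have none. No match says only that the letters are not in this window. Over the 9401 kept genes with a window, CAGAC in either orientation stood in 42.1%, against 95 of 201 genes called higher (47.3%) and 260 of 628 called lower (41.4%). The longer letters AGCCAGACA, which contain CAGAC, stood in 0.277% of all windows, in 1 of the 201 (0.498%) and in 4 of the 628 (0.637%). After correction they stood in 2 of 142 higher (1.41%) and 2 of 221 lower (0.905%), the opposite order on few windows. TGANTCA, the AP-1 motif, stood in 4.01% of all, 7.46% of the higher and 3.18% of the lower, and after correction in 7.75% and 4.52%. GGCGCC stood in 31.8% of all, 19.4% of the higher and 33.8% of the lower, but after correction in 24.6% of the higher and 25.8% of the lower. The median GC content of the windows was 65.7%, 61.7% and 68.3%. CATTCC stood in 10.7%, 11.9% and 9.39%, and after correction in 12% of the higher and 14% of the lower, the opposite order. CACCTG, the letters SNAIL proteins bind, stood in 17.0%, 14.9% and 17.8%, and the CArG box of serum response factor in 1.03%, 1.49% and 0.955%. After correction the CArG box stood in 2 of 142 higher (1.41%) and 0 of 221 lower. TGACGTCA, the CREB motif, stood in 3.47%, 4.98% and 2.55%, and CCAAT in 37.2%, 34.3% and 34.7%. These shares are descriptions, and each motif was searched on both strands.

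**Figure D3:**
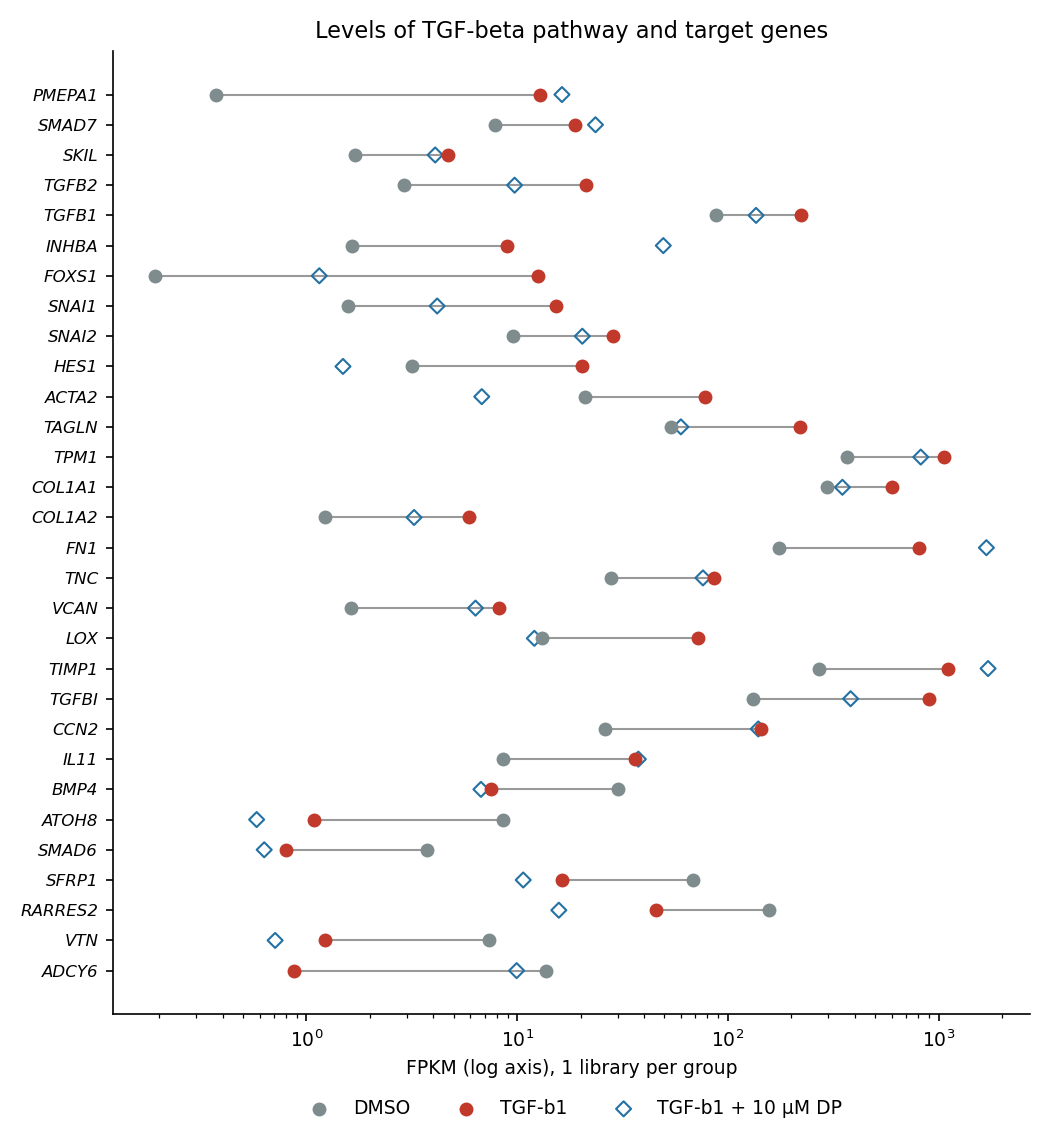
FPKM on a log axis in the DMSO (grey), TGF-b1 (red) and TGF-b1 with 10 μM DP (open diamonds) libraries for 30 genes described in the text, 1 library per group. Grey lines join DMSO to TGF-b1. PMEPA1 and FOXS1 have the longest lines to the right, from under 1 FPKM to above 12, and the lines of the 7 genes at the bottom run to the left.

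Of 31 mesenchymal transcription factors 4 were higher and 0 lower, and the median was 0.19 (-0.07 with equal totals). After correction 7 were higher, against 1.68% of all genes with a corrected value, and 0 lower, and the median was 0.34. FOXS1, a forkhead factor, was at 0.19 FPKM with the vehicle, 12.6 with TGF-b1 and 1.15 with DP added, a difference of 3.51. SNAI1, which represses epithelial genes, was at 1.57, 15.3 and 4.17 FPKM (2.67), and its relative SNAI2 at 9.55, 28.6 and 20.4 (1.49). Other factors of the programme lay within 1 as deposited: ZEB2 was at 4.81 and 2.83 FPKM (-0.60) and TEAD1, which binds YAP, at 15.1 and 9.40 (-0.63). TWIST2 was at 34.5 and 63.0 FPKM (0.85).

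Early-response factors were mixed. EGR2 was at 0.36 FPKM with the vehicle and 6.54 with TGF-b1 (2.47), while its relative EGR1 was at 11.4 and 15.6 (0.42). MYC was at 17.1 and 36.5 FPKM (1.05), and BHLHE40, a repressor of the circadian clock, at 33.4 and 127 (1.90). Among 12 AP-1 factors JUNB was at 24.7 and 85.8 FPKM (1.76, shares reads) and FOSL1 at 209 and 72.3 (-1.52, corrected -1.63). FOSL1 was one of 14 genes lower in the eighth with the shortest transcripts, where the median difference was positive.

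Contractile genes stood on both sides. Of 42 kept, 6 were higher and 7 lower, and after correction 5 were higher and 0 lower, with medians of 0.49 and 0.47. ACTA2, smooth muscle actin, was at 21.1 FPKM with the vehicle, 78.1 with TGF-b1 and 6.79 with DP added (1.84), with exons that overlap FAS. TAGLN, transgelin, was at 53.9, 220.1 and 59.8 FPKM (2.01), with exons that overlap PCSK7. TPM1, a tropomyosin, was at 368, 1065 and 823 FPKM (1.53), and CALD1, which binds actin and tropomyosin, at 32.8, 77.1 and 80.7 (1.21). The lower members were large crosslinkers and motors: FLNA was at 1107 and 429 FPKM (-1.37, corrected -0.55), FLNC at 178 and 54.1 (-1.70, corrected -0.85) and TLN1, talin, at 84.4 and 36.0 (-1.21, corrected -0.44). MYH10, a non-muscle myosin, was at 32.2 and 12.6 FPKM (-1.28, corrected -0.83). In the library with DP, FLNA was at 1167 FPKM and TLN1 at 129.

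Of 20 targets of serum response factor and its MRTF partners 3 were higher and 3 lower, and the median was 0.08 (-0.21 with equal totals). The factors' own transcripts were close between libraries, with SRF at 20.6 and 19.98 FPKM and MRTFA at 17.5 and 15.5. ACTG2, a smooth muscle actin of the gut, was at 9.81 and 13.5 FPKM (0.43).

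Correction turned the sign of the collagen median. As deposited 3 of 18 chains were higher and 3 lower around a median of -0.14, and after correction 7 were higher and 2 lower, the median then being 0.51. The median transcript of the list was 6540 bases long. COL1A2 was at 1.22 FPKM with the vehicle, 5.91 with TGF-b1 and 3.24 with DP added (1.64). COL1A1, the partner chain of type I collagen, was at 295, 604 and 349 FPKM (1.03, corrected 1.75), so the chains of one trimer differed in level by more than 100 FPKM in each library. COL4A1, of the basement membrane, was at 14.5 and 31.4 FPKM (1.06), while COL4A2, its partner, was at 109 and 94.1 (-0.21, corrected 0.51). COL12A1 (39.7 and 10.3 FPKM, -1.85, corrected -1.35) and COL8A1 (14.9 and 4.15 FPKM, -1.62, corrected -1.37) were lower with and without correction.

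Of 31 matrix glycoproteins 7 were higher and 8 lower, and the median of -0.29 became 0.10 after correction. FN1, fibronectin, was at 174 FPKM with the vehicle, 809 with TGF-b1 and 1686 with DP added (2.21). SPARC, which binds collagen, was at 270, 880 and 370 FPKM (1.70), and TNC, tenascin C, at 27.8, 86.1 and 76.1 (1.60). The lower ones included the laminins LAMA4 (4.32 and 0.94 FPKM, -1.46, corrected -1.15) and LAMB2 (22.0 and 8.21 FPKM, -1.32, corrected -0.68). AGRN, agrin, another basement membrane protein, was at 41.8 and 13.6 FPKM (-1.55, corrected -0.72), and HSPG2, perlecan, which shares reads, at 8.73 and 0.58 (-2.62, corrected -1.60). VTN, vitronectin, was at 7.35 and 1.23 FPKM (-1.90, corrected -1.94).

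Proteoglycan and hyaluronan genes had 5 of 20 higher and 3 lower, with a median of 0.20 (-0.09 with equal totals, 0.55 after correction). TNFAIP6, which links hyaluronan chains, was at 1.49 FPKM with the vehicle, 13.4 with TGF-b1 and 6.25 with DP added (2.53, corrected 1.57). VCAN, versican, was at 1.63, 8.24 and 6.34 FPKM (1.81), and HAS2, a hyaluronan synthase, at 0.64, 3.36 and 34.1 (1.41). Lower were the cell surface proteoglycans SDC3 (36.6 and 11.9 FPKM, -1.54), CSPG4 (25.8 and 9.72 FPKM, -1.32) and GPC1 (84.7 and 34.5 FPKM, -1.27). Those 3 lay within 1 after correction, at -0.88, -0.50 and -0.79.

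Enzymes that modify collagen lay mostly within 1, with 2 of 32 higher and 0 lower and a median of -0.09 (0.22 after correction). LOX, which crosslinks collagen and elastin, was at 13.1 FPKM with the vehicle, 71.8 with TGF-b1 and 12.1 with DP added (2.37), with exons that overlap SRFBP1. PLOD2, a lysyl hydroxylase, was at 17.1, 43.7 and 50.3 FPKM (1.31, corrected 0.88). P4HB, a subunit of prolyl hydroxylase, was at 522 and 450 FPKM (-0.21).

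Matrix proteases and their inhibitors held 4 higher and 2 lower genes of 30. TIMP1, which blocks metalloproteinases of the matrix, was at 271 FPKM with the vehicle, 1111 with TGF-b1 and 1717 with DP added (2.03). SERPINE2, which inhibits thrombin and urokinase, was at 44.7, 204 and 77.1 FPKM (2.17). MMP2, a gelatinase, was at 16.2, 43.5 and 80.8 FPKM (1.37), and MMP1, an interstitial collagenase, at 21.01, 9.43 and 228 (-1.08, corrected -1.61). Integrins, the matrix receptors, had 0 of 12 higher and 2 lower. ITGA7, a laminin receptor subunit, was at 10.5 and 2.36 FPKM (-1.77, corrected -1.30), and ITGB1, the shared beta subunit, at 190.1 and 317 (0.74).

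Of 17 genes of the BMP branch, which signals through SMAD1, SMAD5 and SMAD9, 0 were higher and 5 lower as deposited and 4 after correction. BMP4, a ligand, was at 30.1 FPKM with the vehicle, 7.50 with TGF-b1 and 6.73 with DP added (-1.87, corrected -2.04). ATOH8, a transcription factor that BMPs induce in hepatocytes, was at 8.54, 1.09 and 0.58 FPKM (-2.19, corrected -2.01). CHRDL1, an extracellular BMP antagonist, was at 10.5, 2.96 and 1.94 FPKM (-1.53), and NBL1, another antagonist, which shares reads, at 13.1 and 1.95 (-2.25). The best known BMP targets were not lower together: ID1 was at 24.8 and 26.5 FPKM (0.09, below 0 with equal totals), ID2 at 13.5 and 11.8 (-0.17) and ID3 at 68.6 and 112 (0.70). GREM1, an antagonist made by fibroblasts, was at 129 and 174 FPKM (0.42).

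Genes of other signalling pathways also stood among the called ones. Over all kept genes 2.31% were higher and 6.73% lower. In the Notch pathway 2 of 15 genes were higher, the ligand JAG1 (10.1 and 23.9 FPKM, 1.16) and the target HES1. HES1, a transcriptional repressor, was at 3.17 FPKM with the vehicle, 20.4 with TGF-b1 and 1.49 with DP added (2.36). NOTCH1 was at 5.65 and 2.59 FPKM (-0.89, corrected -0.03), and NOTCH2, which shares reads, at 62.6 and 37.2 (-0.74, corrected -0.13). Of 30 Wnt genes 2 were higher (6.67%) and 2 lower (6.67%) as deposited, the lower share being near that of all kept genes. After correction 2 were higher and 2 lower, against 1.68% and 2.52% of all genes with a corrected value. As deposited the higher ones were the ligands WNT5A (6.19 and 18.2 FPKM, 1.42) and WNT5B (14.3 and 30.2 FPKM, 1.02). The lower ones were the secreted antagonists SFRP1 (68.2 and 16.3 FPKM, -1.997) and DKK1 (102 and 47.8 FPKM, -1.07, corrected -1.66).

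Growth factor lists had called genes in both directions. Of 16 PDGF, FGF and HGF genes 2 were higher and 1 lower (1 and 0 after correction), and of 14 VEGF, angiopoietin and endothelin genes also 2 and 1 (1 and 0). Higher shares in these lists were 12.5% and 14.3%, against 2.31% of all kept genes. Lower shares were 6.25% and 7.14%, against 6.73%. VEGFA, which drives vessel growth, was at 14.7 FPKM with the vehicle, 43.3 with TGF-b1 and 43.1 with DP added (1.4996, corrected 2.30). That corrected value rests on the longest annotated transcript, of 12167 bases. PDGFA, a mitogen of stellate cells, was at 9.85 and 21.3 FPKM (1.04), FGF2, which shares reads, at 9.54 and 28.6 (1.49) and HBEGF, a ligand of the EGF receptor, at 16.4 and 42.4 (1.32). PTHLH, parathyroid hormone-related protein, was at 2.47, 12.3 and 6.49 FPKM (1.94), and EDN1, endothelin 1, at 1.03, 3.39 and 0.87 (1.11, corrected 0.66). The lower ones were CSF1, the growth factor of macrophages (15.8 and 5.90 FPKM, -1.28, corrected -0.81), and ECE1, which cleaves the endothelin precursor (45.6 and 15.3 FPKM, -1.52, corrected -0.96). Of 14 IGF and IGFBP genes 2 were higher and 4 lower around a median of -0.40 (2 and 2 around -0.06 after correction). IGFBP3 was at 3.38 and 11.7 FPKM (1.54) and IGFBP5 at 15.5 and 4.48 (-1.59), and IGFBP5 was at 72.2 in the library with DP.

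Of 30 YAP and TEAD targets 3 were higher and 3 lower (10% each, against 2.31% and 6.73% of all kept genes) around a median of -0.21. CCN2, TGFB2 and IGFBP3 were the higher ones. ANKRD1, a standard readout of YAP, was at 16.9 and 17.8 FPKM (0.07), and CCN1 at 163 and 288 (0.82). AXL, a receptor kinase on the same list, was at 280 and 159 FPKM (-0.81, corrected -0.39).

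**Figure D4:**
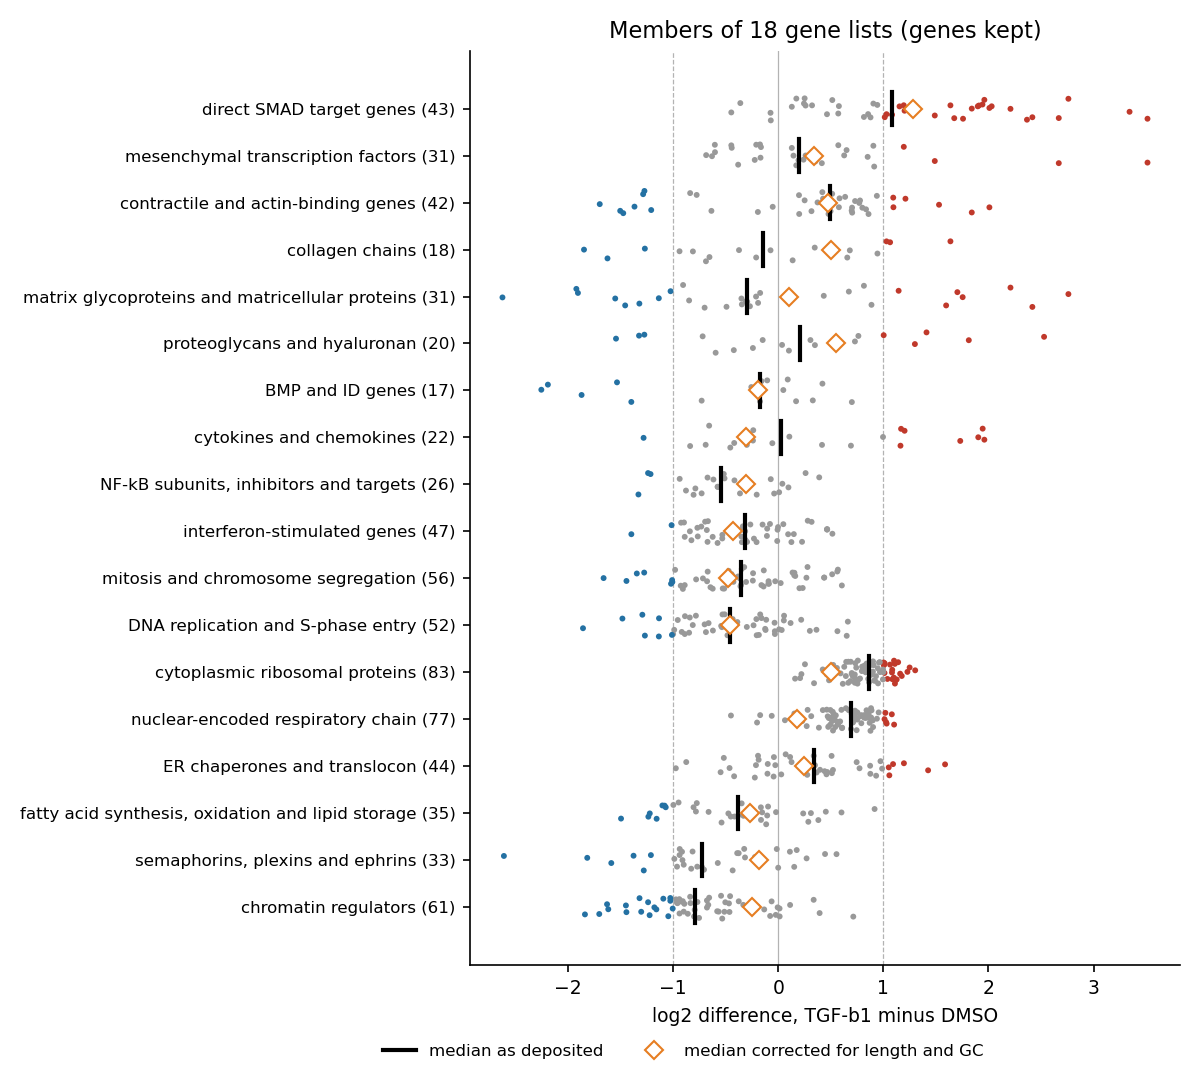
Log2 difference (TGF-b1 minus DMSO) of every kept member of 18 gene lists, with the number kept in brackets. Each point is a gene, red from 1 upward and blue from -1 downward, black bars are list medians as deposited and open diamonds list medians after the correction. SMAD targets have 24 red points and no blue one, and the collagen diamond lies at 0.51 where the bar lies at -0.14.

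Cytokines and chemokines had 7 of 22 genes higher and 1 lower as deposited, but 3 higher and 7 lower after correction, and the list's median turned from 0.03 to -0.31. Their median transcript was 1636 bases long. CXCL12, a chemokine of stromal cells, was at 157 FPKM with the vehicle, 525 with TGF-b1 and 221 with DP added (1.73, corrected 1.74). LIF, a cytokine of the IL-6 family, was at 1.53, 4.82 and 9.89 FPKM (1.20, corrected 1.59). CCL2, which attracts monocytes, was at 21.1, 81.5 and 40.5 FPKM (1.90, corrected 0.996), and CCL7, a close relative, at 0.73, 5.66 and 2.44 (1.94, corrected 0.85). The neutrophil chemokines CXCL1 (47.5 and 37.6 FPKM, -0.33), CXCL2 (4.42 and 2.36 FPKM, -0.69) and CXCL6 (5.13 and 2.43 FPKM, -0.84) were below -1 only after correction. Blood cell markers other than CD68 and CD14 were at 1.25 FPKM or less in both libraries, and their part in these levels was not tested.

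Of 26 NF-kB subunits, inhibitors and targets 0 were higher and 3 lower, and the median was -0.54 (-0.31 after correction). After correction 1 was lower. TNFAIP3, an inhibitor that NF-kB induces, was at 12.4 FPKM with the vehicle, 4.78 with TGF-b1 and 36.5 with DP added (-1.21, corrected -0.95). TNFAIP2 was at 53.6, 20.7 and 18.3 FPKM (-1.33, corrected -0.76). Outside that list, TNFRSF1B, the second receptor for TNF, was at 16.3, 2.28 and 4.79 FPKM (-2.40, corrected -2.01). Of 47 interferon-stimulated genes 0 were higher and 2 lower as deposited (4.26%, against 6.73% of all kept genes), and the median was -0.31. After correction 4 of the 47 were lower, against 2.52% of all genes with a corrected value, and the median was -0.43. OAS3, an antiviral enzyme, was at 14.8 and 4.99 FPKM (-1.40), and PARP14 at 7.32 and 3.12 (-1.01). Of 16 antigen presentation genes 0 were higher and 0 lower, with B2M, the light chain of class I molecules, at 685 and 1022 FPKM.

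Cell cycle lists lay below the median of all genes. Of 56 mitosis genes 0 were higher and 7 lower, and the median was -0.36 (-0.48 after correction). Of 52 genes of DNA replication 0 were higher and 7 lower, and the median was -0.46 as deposited and corrected. MKI67, a marker of dividing cells, was at 49.3 FPKM with the vehicle, 14.9 with TGF-b1 and 29.5 with DP added (-1.66, corrected -1.06). TOP2A, a topoisomerase of dividing cells, was at 110 and 54.0 FPKM (-1.01, corrected -1.04). POLE, the leading-strand polymerase, was at 19.5 and 4.65 FPKM (-1.86, corrected -1.17), and MCM2, of the replicative helicase, at 107 and 44.0 (-1.27, corrected -0.91). Within the same lists UBE2C (310 and 472 FPKM, 0.61), CCNB1 (248 and 291 FPKM, 0.23) and PCNA (285 and 367 FPKM, 0.36) were above their vehicle level as deposited, and each was below 0 after correction and CCNB1 also with equal totals (-0.07).

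Growth-arrest genes were mixed. CDKN2B, the p15 inhibitor that TGF-beta induces in epithelial cells, was at 2.75 FPKM with the vehicle, 6.57 with TGF-b1 and 2.23 with DP added (1.01, corrected 0.98). GADD45B, a stress protein, was at 31.4, 80.5 and 62.4 FPKM (1.33). CDKN2A was at 109 and 183 FPKM (0.75), and BCL2L1, an inhibitor of cell death, at 72.6 and 35.04 (-1.03, corrected -0.93).

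Every one of the 83 cytoplasmic ribosomal protein genes had a higher level in TGF-b1 than in DMSO as deposited, 23 of them by at least 1, and 79 did with equal totals. The median of 0.86 was 0.56 with equal totals and 0.50 after correction. The 8 called after correction had longest annotated transcripts of 3828 bases (RPS15A) to 7686 bases (RPL37), and with RPS29 among them, described further on, that count is not relied on. The summed level of the 83 genes was 50801 FPKM with the vehicle, 89300 with TGF-b1 and 49747 with DP added, and their gain was 37.3% of the 103188 FPKM by which the TGF-b1 column exceeded DMSO. RPL39 was at 648 and 1599 FPKM (1.30, corrected 0.88) and RPL3 at 818 and 914 (0.16, corrected 0.09). The list's transcripts had a median length of 1857 bases, near the short end of all genes.

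Of 77 nuclear genes of the respiratory chain 6 were higher and 0 lower, and of 77 mitochondrial ribosomal proteins 4 and 0, with medians of 0.69 and 0.58. After correction neither list had a called gene, and the medians were 0.18 and 0.20. COX6C was at 60.7 and 129 FPKM (1.08, corrected 0.20) and NDUFB4 at 97.4 and 210.3 (1.10, corrected 0.34). SDHA, a subunit of complex II, was at 180 and 131 FPKM (-0.45).

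Of 44 genes of endoplasmic reticulum chaperones and the translocon 6 were higher and 0 lower, and the median was 0.34 (0.04 with equal totals). Only 1 was called after correction. SEC61G and SEC61B, small subunits of the translocon, were at 118 and 358 FPKM (1.59, corrected 0.53) and at 209 and 480 (1.20, corrected 0.34). XBP1, a factor of the unfolded protein response, was at 51.8 and 108 FPKM (1.05, corrected 0.50), while HYOU1, a chaperone of the same response, was at 37.8 and 18.8 (-0.97).

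Of 35 genes of fatty acid synthesis, oxidation and storage 0 were higher and 7 lower, and 0 were called after correction, when the median went from -0.38 to -0.26. FASN, fatty acid synthase, was at 63.2 FPKM with the vehicle, 27.8 with TGF-b1 and 59.8 with DP added (-1.16, corrected -0.30), and CPT1A, which admits fatty acids to mitochondria, at 24.8, 9.98 and 21.6 (-1.23, corrected -0.87). Of 34 cholesterol genes 2 were higher and 2 lower (5.88% each, against 2.31% and 6.73% of all kept genes). Their median was 0.12 (-0.11 with equal totals). ABCA1, which exports cholesterol, was at 3.46, 9.78 and 13.2 FPKM (1.27, corrected 1.70).

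Among 13 kept genes of retinoid handling and quiescent stellate cells 0 were higher and 2 lower as deposited, and 3 were lower after correction. RARRES2, chemerin, a retinoid-responsive chemoattractant, was at 156 FPKM with the vehicle, 45.5 with TGF-b1 and 15.8 with DP added (-1.76, corrected -1.74). NGFR, the low-affinity neurotrophin receptor of stellate cells, was at 6.02, 1.38 and 1.56 FPKM (-1.56, corrected -1.18). CRABP2, which carries retinoic acid, was at 7.25, 3.41 and 0.9 FPKM (-0.90, corrected -1.33).

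By count, the list with the most lower members was that of chromatin regulators, with 17 of 61 lower (27.9%), 0 higher and a median of -0.79. By share, the BMP genes (29.4%), the IGF and IGFBP genes (28.6%) and the blood cell markers (33.3%) were above it. Of all kept genes 6.73% were lower, and 15.7% in the eighth with the longest transcripts. After correction 4 were lower and the median was -0.25. The list's transcripts had a median length of 7061 bases. CHD3, a chromatin remodeller, was at 44.0 FPKM with the vehicle, 11.6 with TGF-b1 and 41.0 with DP added (-1.84, corrected -1.17). KMT2D, a histone methyltransferase with a very long transcript, was at 6.71, 1.37 and 8.06 FPKM (-1.70, corrected -0.65). HDAC2, a deacetylase, was the highest member, at 57.7 and 95.3 FPKM (0.71).

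Semaphorins, plexins and ephrins, guidance molecules first known from axons, had 6 of 33 lower and 0 higher, with a median of -0.73 (-0.19 after correction). SEMA3B was at 8.76 FPKM with the vehicle, 0.6 with TGF-b1 and 0.33 with DP added (-2.61, corrected -2.24). SLIT2, a ligand of Robo receptors, was at 23.9, 6.06 and 6.80 FPKM (-1.82, corrected -1.60). In both, the libraries with TGF-b1 lay close together and below DMSO. Of 27 adenylyl cyclases, phosphodiesterases and RGS proteins 4 were lower (14.8%, against 6.73% of all kept genes) and 0 higher. After correction 1 was lower and 1 higher, and the median was -0.02 as deposited and -0.07 corrected. ADCY6, which makes cyclic AMP, was at 13.8, 0.87 and 9.94 FPKM (-2.98, corrected -2.35), and ADCY9 at 8.21, 3.07 and 5.94 (-1.18, corrected -0.47).

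The 30 largest differences in each direction also held genes of other kinds. MYCT1 was at 1.21 FPKM with the vehicle, 17.1 with TGF-b1 and 79.7 with DP added (3.03). NREP, a neuronal protein also known from myofibroblasts, was at 34.8, 178 and 96.8 FPKM (2.32), and RALA, a small GTPase, at 39.1, 156 and 141 (1.97). S100A11, a calcium-binding protein, was at 283, 988 and 662 FPKM (1.80, corrected 1.06). On the lower side PLEKHA7, of adherens junctions, was at 19.2, 3.45 and 3.82 FPKM (-2.18, corrected -1.70), and PREX1, an activator of Rac, at 11.0, 1.86 and 1.06 (-2.07, corrected -1.39). BCAM, a laminin receptor, was at 20.2, 4.95 and 4.81 FPKM (-1.83, corrected -1.44). DYNC1H1, the dynein heavy chain, HTT, huntingtin, and UBR4, a ubiquitin ligase, were lower in TGF-b1 (8.10, 3.74 and 5.13 FPKM) than in DMSO (31.4, 15.8 and 20.3). Those 3 have corrected differences of -0.94, -1.10 and -0.998, and in TGF-b1+DP they were at 36.4, 14.4 and 21.3 FPKM. Of the 29 higher genes with a corrected value 27 were still called after correction, and of the 26 lower genes 24. The smallest differences in size were 1.70 on the higher and 1.80 on the lower side. Both lie well past the cutoff of 1, so this was largely set by the selection. Of all called genes with a corrected value, 45.7% of the higher and 26.4% of the lower were also called after correction.

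Genes that went against the length trend were few. Of the 11 higher genes in the eighth with the longest transcripts, FN1, VCAN, TNC, THBS1, SKIL and VEGFA belong to the matrix, feedback or growth factor lists above, and ABCA1 to the cholesterol list. DSP, desmoplakin, was at 0.38 FPKM with the vehicle, 2.50 with TGF-b1 and 7.24 with DP added (1.34, corrected 1.84). The length used is that of the longest annotated transcript, so RPS29, a short ribosomal protein, also fell in that eighth with a length of 7062 bases, and its corrected value of 1.35 is void for that reason. Whether that rule also overstates the length of other genes there, such as VEGFA (12167 bases), was not tested. Among the 14 lower genes in the eighth with the shortest transcripts were ADIRF, an adipogenesis factor (5.88, 0.32 and 2.49 FPKM, -2.38), and SERPINF1, which inhibits vessel growth (2.25, 0.48 and 1.19 FPKM, -1.13).

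Common reference genes also differed between the libraries as deposited, with a median of 0.17 over 18 genes (-0.13 with equal totals). GAPDH was at 4552 FPKM with the vehicle and 5836 with TGF-b1 (0.36), ACTB at 3042 and 5050 (0.73), and TBP at 18.9 and 26.3 (0.46). POLR2A, the large subunit of RNA polymerase II, was at 47.5 and 17.0 FPKM (-1.43, corrected -0.80).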

How the data were processed

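RNA of LX-2 cells was sequenced in 3 libraries, 1 per group. The authors deposited 1 table of FPKM values, 1 column per library, per the file headers. The submitters' processing notes name GRCh38.p13, BWA, Bowtie, Cufflinks and Cuffdiff, while the sources used here give no roles, versions, strand setting or library depths. Values are relative to the library they come from, so abundant transcripts move all others. Of 17596 lines, 20 carried annotation text and were left out. Each of the 17576 genes was matched by Entrez identifier to GENCODE release 29 (GRCh38) for length and GC content (17336 genes, 98.6%). The pseudocount was 1 FPKM, which understates differences of low genes.

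The correction fitted natural splines on log2 length and GC content by least squares and kept the median. A gene was taken to share reads, and its value to be uncertain, where its exons overlapped another measured gene by at least 100 bp or 200 bases matched one at 97% identity (3751 genes). Promoters are from RefSeq (GRCh38.p14), with windows for 9401 kept genes. The computation was tested on simulated data. Python 3.11.15, numpy 2.4.6, pandas 2.3.3, matplotlib 3.10.9, bedtools 2.31.1 and minimap2 2.31 were used.

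The genes compared and the gene lists were chosen with earlier results of these data known. Named genes are the 30 largest differences in each direction among genes above 0 in both libraries, at 5 FPKM or more in the higher and sharing no reads (15 and 26 that share reads were passed over), up to 6 called and 3 abundant members per list in each direction, and key pathway genes. Any other gene named was chosen after its values were seen. Some genes that the rule names are not reported here.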

Additional observations from a re-analysis of the deposited data

How the results depend on the processing

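The 262 higher genes became 149 with a pseudocount of 5 FPKM, 107 with both columns scaled to the same total and 445 with median-of-ratios scaling. The 762 lower genes became 1209 with a pseudocount of 0.1 FPKM, 232 with 5 FPKM, 1580 at equal column sums and 284 once the trend with length and GC content was removed. Under the other alternatives tried, both counts stayed within 1.5 times. Of 279 called genes among the 1772 on the lists or chosen by rank, 1 turned its sign under the 10 alternatives run, MRPS36 (1.07 as deposited, -0.0050 after correction; the cause was not tested). The SMAD target median of 1.08 did not, while list medians nearer 0, such as those of the collagens and cytokines, did. The list medians that moved by over 1.5-fold were those of the collagens and the histones after correction, and of the blood cell markers above 5 FPKM. No paired analysis was possible because each group has 1 library, so none could be left out either. The depth of the libraries is unknown, so no counting error is attached to a single value.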

Other observations

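Other lists held a few higher genes. HSPB1, a small heat shock protein, was at 197 FPKM with the vehicle, 466 with TGF-b1 and 172 with DP added (log2 difference 1.23, corrected 1.10). Among 37 heat shock genes 3 were higher (8.11%, against 2.31% of all kept genes) and 0 lower. Of 7 kept metallothionein genes, which bind zinc and copper, 2 were higher: MT1X was at 21.9, 105.9 and 62.5 FPKM (2.22) and MT2A at 472, 1046 and 1260 (1.15, corrected 0.60). TXN, thioredoxin, was at 187 and 467 FPKM (1.32, corrected 0.35). Of 26 keratin, cadherin and desmosome genes 5 were higher and 3 lower. KRT18, a keratin of simple epithelia that shares reads, was at 388, 890.1 and 203 FPKM (1.20), and CDH11, a cadherin of mesenchymal cells, at 1.47, 4.36 and 3.07 (1.12), while CDH13 was at 25.1, 8.89 and 31.9 (-1.40).

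Some genes were listed at 0 in DMSO and above 1 FPKM in both libraries with TGF-b1. SCG5, a chaperone of secretory granules, was at 3.56 FPKM with TGF-b1 alone and 30.04 with DP added, and GAL, the neuropeptide galanin, at 3.97 and 18.5. Neither shares reads by the criteria used. They were chosen after their values were seen, and a 0 in such a table can be a failed estimate, so no fold is given.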
